A study of Mus musculus with 2 samples.

Results

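The Hox genes encode homeodomain transcription factors that give cells their position along the body and the limb. In the mouse they stand in 4 clusters, Hoxa to Hoxd, and genes of the same number in different clusters are paralogues that descend from one ancestral gene. Within a cluster the genes lie in the order in which they act along the body. Low numbers belong to the head and neck, and high numbers to the lumbar region, the tail and the distal limb. Polycomb complexes keep silent Hox genes packed, Trithorax complexes keep active ones open, and adult cells often retain the combination of open Hox genes of the place they came from.

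The members are 38 protein-coding genes with a Hoxa, Hoxb, Hoxc or Hoxd symbol and a number, among 21951 protein-coding genes of the mm10 annotation, and the DNA between them. There are 10 genes in Hoxa (chr6:52161417-52261880), 10 in Hoxb (chr11:96193316-96369256), 9 in Hoxc (chr15:102920103-103037852) and 9 in Hoxd (chr2:74667310-74766142). Each of these intervals runs from the first to the last base of the member genes with 1 kb added on each side. The Hoxa genes lie on the minus strand and the genes of the other clusters on the plus strand.

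The series mapped open chromatin by DNase-seq, in which DNase I cuts accessible DNA and the cut ends are sequenced. The tissue was the gastrocnemius, the large calf muscle of the hindlimb, from B6CASTF1/J females aged 14 days, F1 hybrids with 1 set of chromosomes from C57BL/6J and 1 from CAST. There was 1 group of 2 biological replicates, taken as separate biosamples whose donor record is the same, and each label speaks of 3 females, so the spread between them may be technical. No treatment and no second tissue was compared, and no test between groups was possible.

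On chromosomes 1 to 19 and X the strict lists held 87548 peaks in replicate 1 and 79541 in replicate 2, and the permissive lists held 141992 and 133276. Signal means the value that the authors deposited for a peak, on a scale that the sources used here do not explain, and its median over strict peaks was 1.53 in each replicate. All 8 skeletal muscle genes examined, among them Ckm and Myod1, had a peak of both libraries at a start, as did 64.2% of all protein-coding genes, so the count does not single out muscle. Of the other cell types, all 4 fibroblast, all 4 endothelial and all 4 neuronal genes had one, as did 1 of 4 keratinocyte genes and none of 4 hepatocyte and 4 macrophage genes. In bulk tissue, fewer cells with an open promoter and weaker opening in each cell cannot be told apart.

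A site was called shared where strict peaks of both libraries overlapped by at least 1 bp, and a gene was credited with it where the middle of the site lay within 1000 bp of any annotated transcript start. The sequences below show 7 such sites: in Hoxa, Hoxb and Hoxd the strongest in the window of a member and the strongest outside all windows, and in Hoxc the strongest outside, among those that overlap no untranslated region or coding exon. They are plus-strand mm10 letters, 5′ to 3′, and capitals mark bases that lay in a DNase footprint, a short stretch protected from cutting, in both libraries.
Upstream of Hoxc8, chr15:102987541-102987700: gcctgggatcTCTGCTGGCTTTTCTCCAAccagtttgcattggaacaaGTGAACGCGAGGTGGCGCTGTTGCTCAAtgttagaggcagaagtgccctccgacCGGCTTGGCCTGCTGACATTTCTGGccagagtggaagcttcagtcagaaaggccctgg
Hoxd10 promoter, chr2:74691681-74691900: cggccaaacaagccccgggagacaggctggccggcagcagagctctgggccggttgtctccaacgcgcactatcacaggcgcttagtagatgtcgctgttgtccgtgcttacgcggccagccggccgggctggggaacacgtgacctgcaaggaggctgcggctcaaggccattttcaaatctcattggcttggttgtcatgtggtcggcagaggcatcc
Hoxd3os1 start, chr2:74715881-74716040: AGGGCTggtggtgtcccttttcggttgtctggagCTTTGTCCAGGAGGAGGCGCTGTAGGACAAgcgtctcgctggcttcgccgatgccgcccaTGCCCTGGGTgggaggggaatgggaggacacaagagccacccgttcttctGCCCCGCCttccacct
Hoxa4 promoter, chr6:52191841-52192040: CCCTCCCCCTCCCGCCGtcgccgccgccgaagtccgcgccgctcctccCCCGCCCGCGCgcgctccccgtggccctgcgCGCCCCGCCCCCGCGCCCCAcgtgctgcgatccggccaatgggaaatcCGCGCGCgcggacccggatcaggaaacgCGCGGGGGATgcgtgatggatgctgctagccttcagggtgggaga
Intron of the long Hoxa3 transcript, chr6:52211641-52211820: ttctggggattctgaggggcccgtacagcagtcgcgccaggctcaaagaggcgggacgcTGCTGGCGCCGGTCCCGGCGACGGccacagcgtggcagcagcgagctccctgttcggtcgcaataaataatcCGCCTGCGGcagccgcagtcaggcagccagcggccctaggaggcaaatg
Hoxb5 promoter, chr11:96303141-96303340: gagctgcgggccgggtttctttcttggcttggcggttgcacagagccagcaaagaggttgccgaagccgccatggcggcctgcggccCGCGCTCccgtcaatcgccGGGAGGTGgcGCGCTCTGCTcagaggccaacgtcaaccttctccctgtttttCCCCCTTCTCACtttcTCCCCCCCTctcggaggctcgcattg
Upstream of Hoxb8, chr11:96278901-96279060: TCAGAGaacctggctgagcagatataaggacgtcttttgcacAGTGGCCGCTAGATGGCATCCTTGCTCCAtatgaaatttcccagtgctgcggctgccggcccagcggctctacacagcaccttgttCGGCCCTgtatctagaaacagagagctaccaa

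Of the 38 Hox genes, 17 had a shared promoter site (44.7%), against 64.2% of the 21755 protein-coding genes on chromosomes 1 to 19 and X. In Hoxa these were Hoxa3, Hoxa4, Hoxa5, Hoxa7, Hoxa9 and Hoxa10, 6 of 10 genes. In Hoxb it was Hoxb5 alone, 1 of 10 genes. In Hoxc they were Hoxc5, Hoxc6, Hoxc10, Hoxc11 and Hoxc13, and in Hoxd they were Hoxd3, Hoxd4, Hoxd8, Hoxd9 and Hoxd10, 5 of 9 genes in each. All 3 members of paralogue group 10 had one (Hoxa10, Hoxc10 and Hoxd10), as did all 3 of group 5 (Hoxa5, Hoxb5 and Hoxc5). By position, 2 of 7 genes numbered 1 to 3, 8 of 15 numbered 4 to 8 and 7 of 16 numbered 9 to 13 had a shared site.

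The signals were mostly modest for promoters. Of the 17 genes, 4 ranked above the middle of the 13985 protein-coding genes with a promoter peak in both libraries, and 13 below it. The 4 were Hoxc10 and Hoxc5, credited with the same site (rank 3218), Hoxa10 (rank 5379) and Hoxa9 (rank 6986). Hoxa9 thus lay close to the middle. The median over those 13985 genes was 7.96 in replicate 1 and 7.19 in replicate 2.

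**Figure D1:**
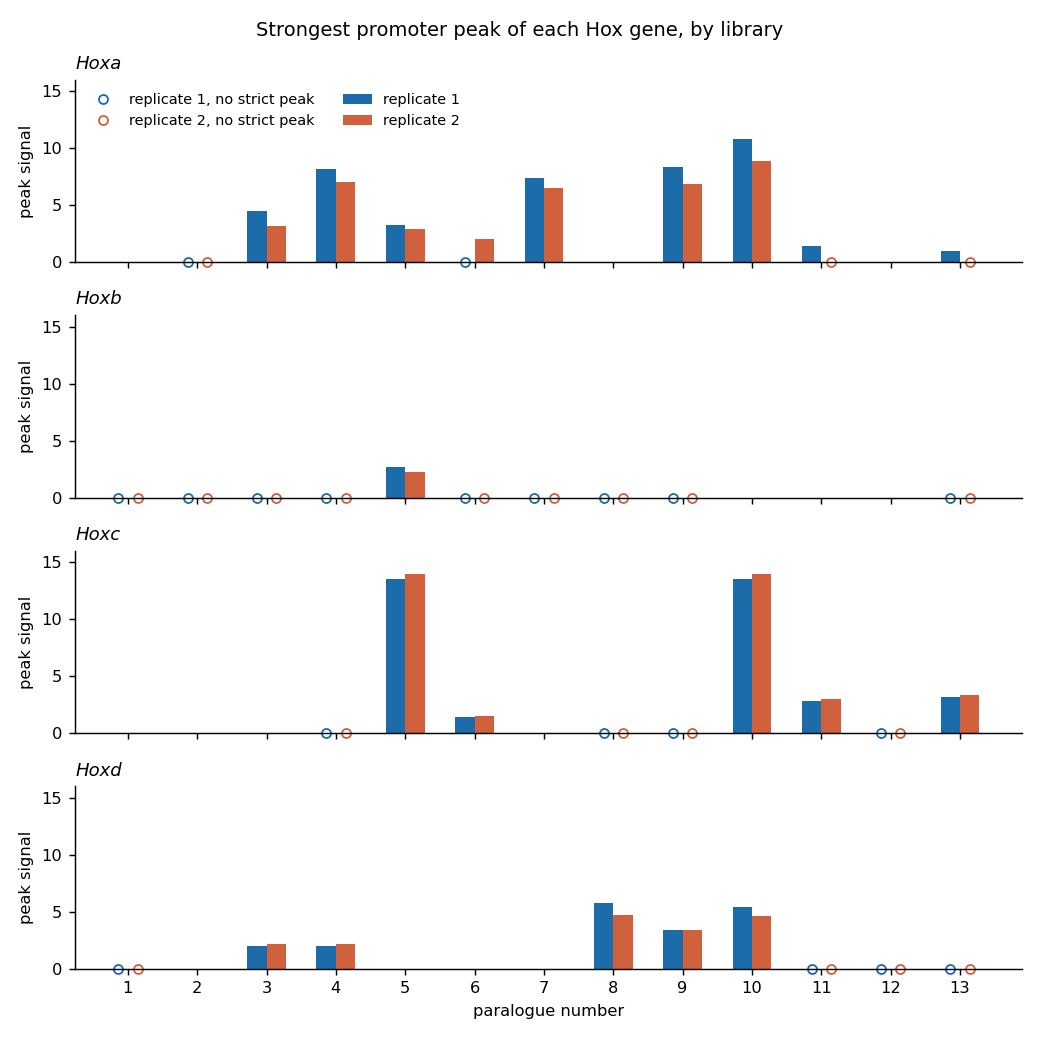
Signal of the strongest strict promoter peak of each Hox gene (vertical axis, the authors' signal per peak) by paralogue number (horizontal axis), with 1 panel per cluster, a bar for each library and an open circle where a library had no strict peak. The tallest bars are the 13.5 and 14.0 of Hoxc10, whose site is also credited to Hoxc5, and Hoxb shows bars for Hoxb5 alone.

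Hoxc10, which with its paralogues patterns the lumbar vertebrae and the upper hindlimb, had the strongest promoter site of the clusters. Its signal was 13.5 in replicate 1 and 14.0 in replicate 2, a mean of 13.8 ± 0.361 (SD, n = 2). That placed it at rank 3218, in the top 23.0% of genes with a peak in both libraries. The site held 4 footprints in each library. Hoxc5 was credited with the same site, because a non-coding Hoxc5 transcript begins nearby. A second site in the Hoxc5 coding exon, 267 bp beyond its coding start, had signals of 2.27 and 2.25.

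Its paralogues had weaker sites. Hoxa10 had signals of 10.8 and 8.87 in replicates 1 and 2, from a site 254 bp upstream of its most upstream coding base (chr6:52240441-52240640), and 6 shared sites in its windows. Hoxd10 had signals of 5.38 and 4.61, from the site 133 bp upstream of its start printed above. Over all annotated starts, the order Hoxc10, Hoxa10, Hoxd10 was the same in both libraries and the values of neighbours in that order did not overlap. The order depends on the start used for Hoxa10. At its principal annotated start the shared sites lay 52 bp upstream (2.66 and 2.67) and 708 bp downstream (2.98 and 2.34). Both were weaker than the Hoxd10 site in each library. With peaks summed over the windows of all annotated starts, Hoxa10 had a mean of 26.3 and led, against 15 for Hoxc10. Hoxa10 has 4 such starts and Hoxc10 has 1, so these sums cover unequal lengths of DNA.

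The remaining genes numbered 9 to 13, which pattern the posterior trunk and the limb, ranged widely. Hoxa9 had signals of 8.36 and 6.87 in replicates 1 and 2, and Hoxd9 had 3.41 and 3.38. Hoxc13, a regulator of hair and nail formation, had 3.22 and 3.34. Hoxc11, which with its paralogues patterns the lower leg and forearm, had 2.81 and 3.03. The values of Hoxd9 and Hoxc13 lay below those of Hoxa9 in both libraries and close to each other. From the start of its gene record alone, the mean of Hoxa9 was 2.06. Summed over peaks, the means were 13.5 for Hoxa9, 5.50 for Hoxd9 and 4.42 for Hoxc11, and 12.6 for Hoxa7. Hoxa9 and Hoxa7 have 5 annotated starts each, and Hoxd9 and Hoxc11 have 1 each, so these sums also cover unequal lengths.

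Among genes numbered 4 to 8, which act mainly in the neck and thorax, Hoxa4 and Hoxa7 were strongest after Hoxc5, whose value is that of the Hoxc10 site. Hoxa4 had signals of 8.19 in replicate 1 and 6.99 in replicate 2, and Hoxa7 had 7.34 and 6.53. Hoxd8 had 5.80 and 4.75, the highest of Hoxd. Hoxa5, known for its role in lung and respiratory muscle innervation, had 3.24 and 2.92, and its paralogue Hoxb5 had 2.69 and 2.25. Hoxc6 had the lowest signals of the 17 genes, 1.46 and 1.54. With a 2500 bp window its mean was 8.93, from the site chr15:102999241-102999460 in its introns.

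Of the genes numbered 1 to 3, Hoxa3, needed for thymus and parathyroid formation, had signals of 4.47 and 3.18. Its site lies at the start of a long transcript upstream of Hoxa6, and a separate shared site with signals of 5.70 and 5.49 lay 82 bp upstream of the Hoxa3 coding start (chr6:52172641-52172820). Hoxd3 had 1.96 and 2.17, from a site that Hoxd4 shares because a non-coding Hoxd4 transcript begins there.

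A strict promoter peak in 1 library alone was found for 3 Hox genes (7.89%), against 2.74% of all genes. Hoxa6 had a peak in replicate 2 alone, with a signal of 2.07. Hoxa11, which patterns the lower leg and forearm, had one in replicate 1 alone, with a signal of 1.38, and so did Hoxa13, a gene of the digits, with 0.996. In the permissive lists Hoxa6 and Hoxa11 had peaks in both libraries (2.35 and 2.07, 1.38 and 1.44), while Hoxa13 again had one in replicate 1 alone (1.01).

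No strict promoter peak in either library was found for 18 Hox genes (47.4%), against 33.0% of all genes. They were Hoxa2 of the branchial arches, Hoxb1 and Hoxb2 of the hindbrain, Hoxb3, Hoxb4, Hoxb6, Hoxb7, Hoxb8, Hoxb9 and Hoxb13 of the prostate and tail, Hoxc4, Hoxc8, Hoxc9 and Hoxc12, and Hoxd1, Hoxd11, Hoxd12 and Hoxd13. With the permissive lists, 23 Hox genes had a shared site (60.5%), against 68.7% of all genes. The 6 genes gained were Hoxa6, Hoxa11, Hoxb4, Hoxb9, Hoxc9 and Hoxd1. No permissive peak in either library was left for 10 Hox genes (26.3%), against 27.6% of all genes, so at this level the clusters were close to all genes. Genes of like base composition were not counted with the permissive lists.

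The per-base files, which list bases whose local cut rate had a false discovery rate below 0.05, hold weaker signs of cutting than the peak lists do. For 9 Hox genes (23.7%), against 26.4% of all genes, neither library listed a single base in the 1000 bp windows. These were Hoxa2, Hoxb2, Hoxb3, Hoxb6, Hoxb8, Hoxc12, Hoxd11, Hoxd12 and Hoxd13. The last 3, in Hoxd, are neighbours: the interval from the Hoxd12 to the Hoxd11 coding start held 0 listed bases over 7.31 kb in both libraries. The next interval, from Hoxd11 to Hoxd10, held 5.86% listed bases in replicate 1 and 4.94% in replicate 2.

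Annotated starts matter for these counts. With principal transcript starts alone, 14 Hox genes had a shared site (36.8%), against 61.2% of all genes, and Hoxa9, Hoxc6 and Hoxd4 dropped out. Measured from the most upstream coding base, 15 had one: Hoxc9 was gained, and Hoxc6, Hoxd3 and Hoxd4 were lost. The site at Hoxc9 had signals of 3.21 and 3.00 and lay 152 bp upstream of its coding start, 4.47 kb beyond its principal start. Hoxc9 is therefore counted above as without a peak at its transcript starts, while the DNA beside its coding start was open in both libraries.

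Hox promoters were set beside genes of like base composition. Over 1001 bp around the gene start their median GC content was 57.1%, against 54.8% for all genes, and their median observed to expected CpG ratio was 0.66, against 0.56. With all genes split into 10 equal classes by GC content, 28.6 Hox genes would have had a shared site at the rate of their classes. Among the 19 Hox genes with a CpG ratio at or above the Hox median, 9 had a shared site (47.4%), against 95.6% of the 8504 genes that reach the same ratio. In the richest GC class Hoxa4 had a shared site, and Hoxa13, Hoxb9, Hoxd1 and Hoxd13 did not, against 94.6% of all genes of that class.

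**Figure D2:**
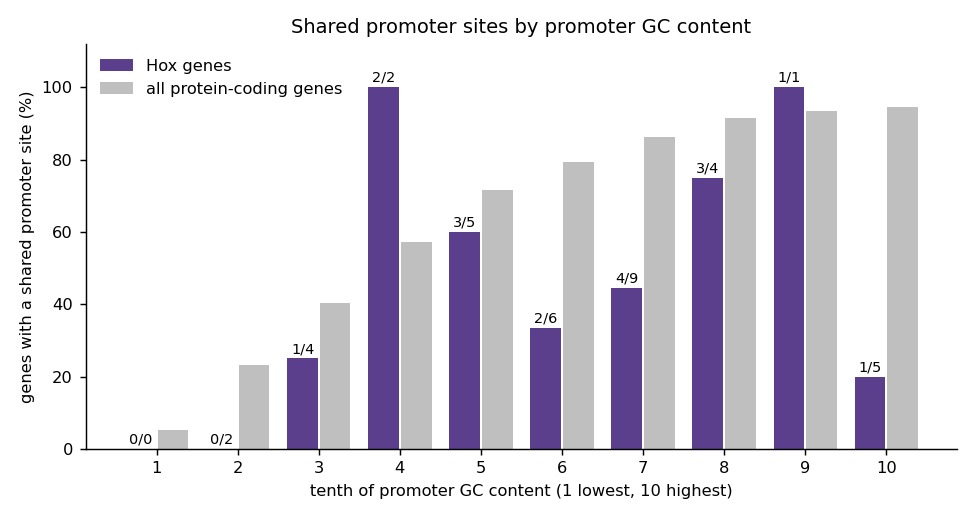
Share of genes with a shared strict promoter site (vertical axis, percent) by promoter GC content (horizontal axis, 10 equal classes from lowest to highest), for the Hox genes (dark bars, with the number shared over the number of members) and all protein-coding genes (grey bars). The grey bars climb to 94.6% in the richest class, where 1 of 5 Hox genes had a shared site.

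The clusters, promoters and the DNA between them together, held more shared sites per length than the genome at large, and unequally so. There were 46 shared sites, 23 in promoter windows of members and 23 outside them. Together these are 9.33 shared sites per 100 kb, against 2.67 over chromosomes 1 to 19 and X. Genes are also denser here, with 38 members in 493 kb, against 21755 protein-coding genes in 2559397 kb. Rates per length, here and below, are not matched for gene density. Hoxa held 16 (15.9 per 100 kb), Hoxc 17 (14.4), Hoxd 5 (5.06) and Hoxb 8 (4.55). Outside the promoter windows lay 7 of the 8 sites of Hoxb, 12 of the 17 of Hoxc, 3 of the 16 of Hoxa and 1 of the 5 of Hoxd.

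The share of listed bases set the clusters apart in the same way. In Hoxa it was 17.2% in replicate 1 and 11.5% in replicate 2, and in Hoxc it was 10.1% and 12.8%. In Hoxd it was 6.03% and 3.89%, and in Hoxb 2.21% and 1.69%, against 1.55% and 1.44% of the genome. In both libraries Hoxb was nearest to the genome, and Hoxa and Hoxc changed places as the highest.

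**Figure D3:**
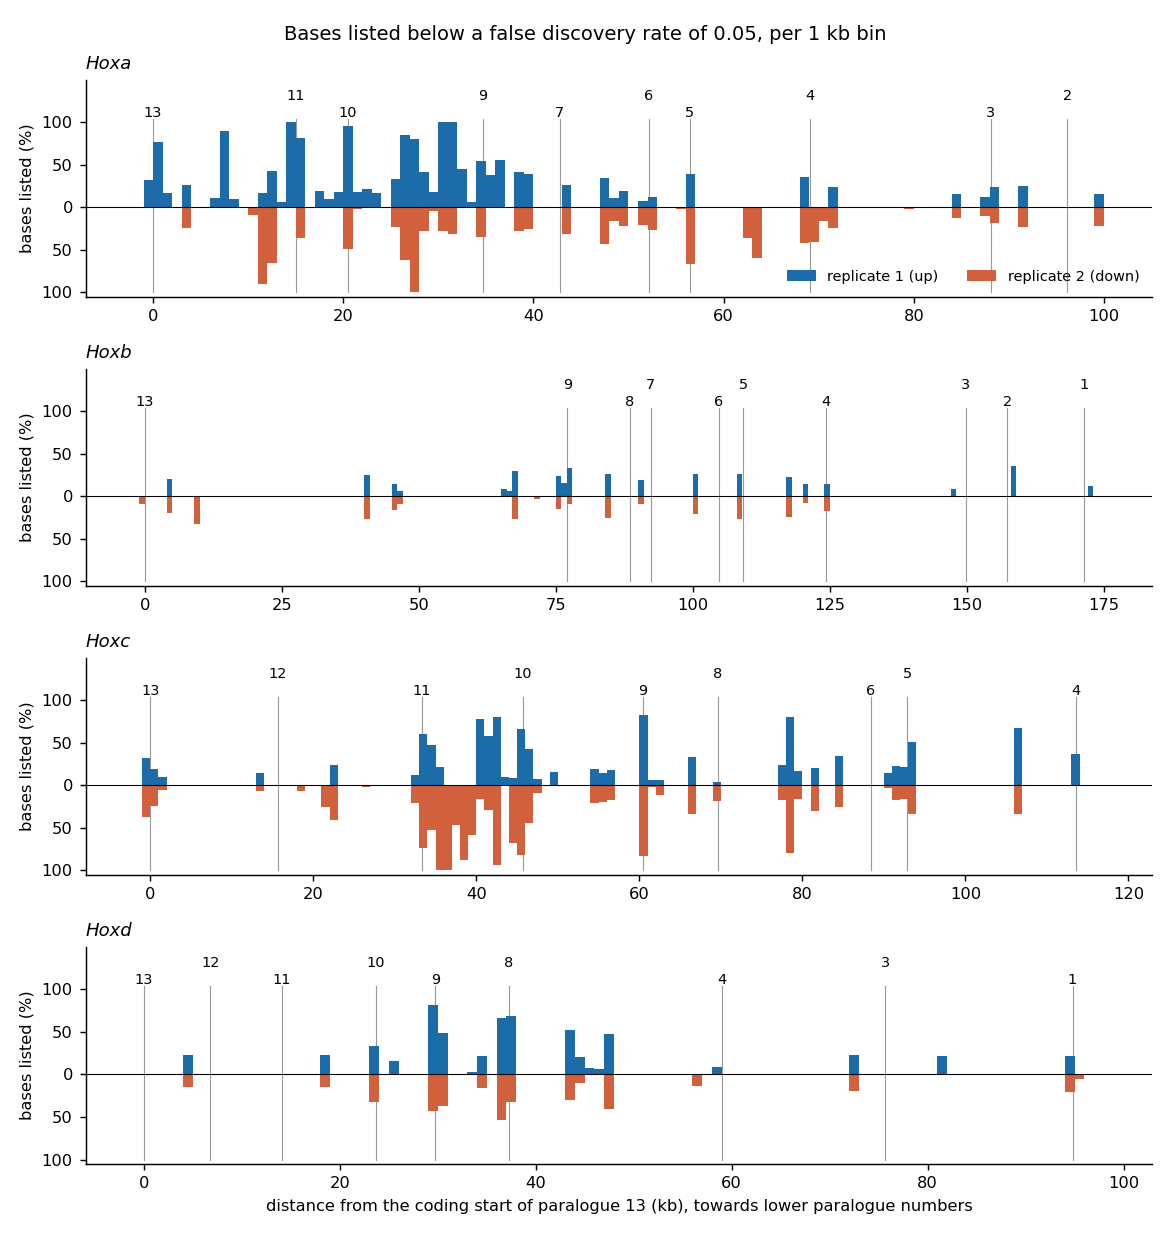
Percent of bases listed below a false discovery rate of 0.05 per 1 kb bin (vertical axis, replicate 1 upwards and replicate 2 downwards) along each cluster (horizontal axis, kb from the coding start of paralogue 13), with numbered lines at the coding starts. The tall blocks lie between genes 13 and 9 of Hoxa and between genes 11 and 10 of Hoxc, and Hoxb has short isolated bars.

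In Hoxa the interval with the highest share of listed bases in both libraries lay between posterior genes. Between the coding starts of Hoxa10 and Hoxa9, 14.2 kb apart, 44.9% of bases were listed in replicate 1 and 22.4% in replicate 2, with 7 shared sites. From Hoxa11 to Hoxa10 the shares were 31.7% and 13.1%, and from Hoxa13 to Hoxa11 they were 26.5% and 12.6%. From Hoxa3 to Hoxa2, at the anterior end, they were 4.60% and 3.60%. In each of the 3 posterior intervals replicate 1 had more listed bases than replicate 2, whereas replicate 2 had more from Hoxa7 to Hoxa6 (11.7% and 15.8%), from Hoxa6 to Hoxa5 (5.96% and 11.5%) and from Hoxa5 to Hoxa4 (4.04% and 13.7%). In replicate 2 the shares of these middle intervals lay close to those from Hoxa13 to Hoxa10.

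In Hoxc the block lay between the coding starts of Hoxc11 and Hoxc10, the genes of the hindlimb and lumbar region. Over those 12.3 kb, 33.1% of bases were listed in replicate 1 and 63.2% in replicate 2. The interval held 5 shared sites, 4 sites of replicate 1 alone and 12 of replicate 2 alone. The neighbouring intervals held far fewer listed bases: from Hoxc12 to Hoxc11 the shares were 2.20% and 5.79%, and from Hoxc10 to Hoxc9 they were 11.5% and 10.7%.

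Set against 5 kb bins of the whole genome, of which 76.8% held no listed base in either library, 6 of 102 Hox bins were in the top 1% by mean listed bases. They were 3 bins of Hoxa and 3 of Hoxc. The bin chr6:52230001-52235000 in the Hoxa10 to Hoxa9 stretch was listed over 63.6% in replicate 1 and 46.9% in replicate 2, rank 205 of 526174 bins. The bin chr15:102955001-102960000, which begins inside Hoxc11 and runs past its end, was listed over 17.6% and 77.2%, rank 408 by the mean but rank 10194 in replicate 1 and rank 73 in replicate 2. Of the Hox bins, 26 held no listed base in either library, and 17 of those lay in Hoxb, 7 in Hoxd, 2 in Hoxc and 0 in Hoxa.

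In Hoxd, the 5 shared sites ran from the Hoxd10 promoter to the Hoxd3os1 start, 4.03 kb beyond the start shared by Hoxd3 and Hoxd4. From the Hoxd9 to the Hoxd8 coding start 25.2% of bases were listed in replicate 1 and 16.4% in replicate 2. From Hoxd4 to Hoxd3 the shares were 1.36% and 1.18%, and from Hoxd3 to Hoxd1 they were 2.26% and 1.09%. In Hoxb the highest share between neighbours was 6.02% and 5.90%, from Hoxb6 to Hoxb5, and from Hoxb3 to Hoxb2 neither library listed a base.

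Several sites outside the promoter windows were stronger than most Hox promoters. In Hoxc the site 2.99 kb upstream of Hoxc8 had signals of 9.86 in replicate 1 and 9.31 in replicate 2. A site 8.74 kb downstream of the Hoxc8 start (chr15:102999241-102999460), in introns of long Hoxc5 and Hoxc6 transcripts, had 9.36 and 8.49. It lay outside the 1000 bp windows but within 2500 bp of a Hoxc6 start. A site 2.92 kb upstream of Hoxc10 (chr15:102963781-102963980) had 4.37 and 4.76. Hoxc8 itself, a gene of the thorax and forelimb level, had no strict promoter peak between the first pair of these.

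In the other clusters such sites were fewer. The strongest in Hoxd, at the start of the antisense transcript Hoxd3os1, had signals of 8.97 and 7.87. In Hoxa, beside the site at the Hoxa3 coding start, the intronic site printed above had 6.01 and 4.71. That intronic site lay 1.38 kb downstream of the principal Hoxa3 start. A site 3.75 kb downstream of the Hoxa13 start (chr6:52257051-52257200) had 3.21 and 3.32. In Hoxb the strongest lay 2.92 kb upstream of Hoxb8 with 3.03 and 3.04. A site in a Hoxb6 intron (chr11:96294641-96294800) had 2.93 and 2.01, and a site 9.72 kb upstream of Hoxb9 (chr11:96261661-96261820) had 2.19 and 1.96.

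The libraries matched closely at shared sites. On the log2 scale, replicate 2 over replicate 1 had a genome-wide median of -0.14 with an SD of 0.30 (68341 shared sites). Centred on that median, the sites of Hoxa had a median of -0.06, those of Hoxb 0.03, those of Hoxd -0.05 and those of Hoxc 0.19. In Hoxc 15 of 17 sites were above 0, with an SD of 0.17 among them. With 1 library on each side the shift has no test.

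**Figure D4:**
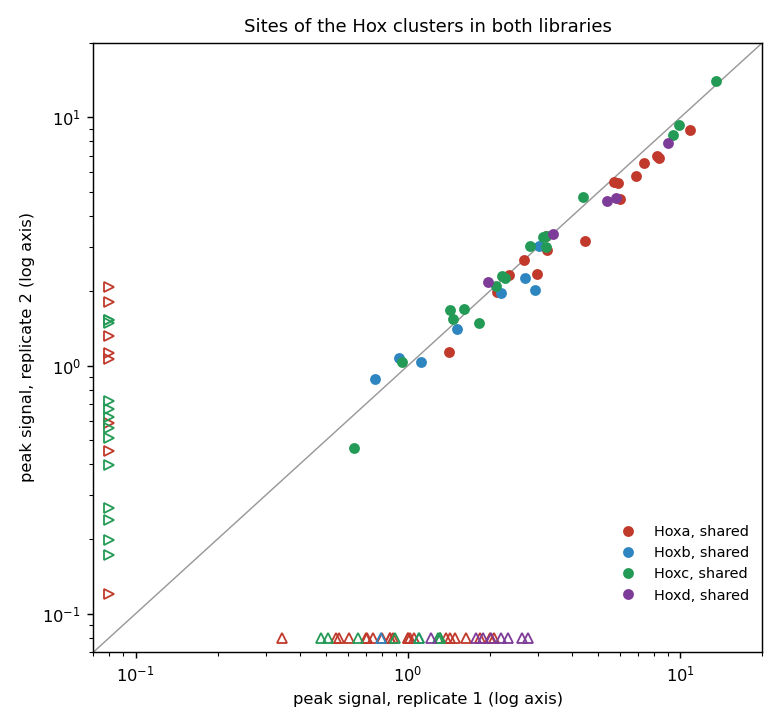
Signal of each site of the clusters in replicate 1 (horizontal log axis) and replicate 2 (vertical log axis), coloured by cluster, with a line where both are equal, filled points for the 46 shared sites and open triangles on the lower and left edges for sites of replicate 1 alone and replicate 2 alone. Shared sites follow the line of equality, and the sites of 1 library alone have signals of at most 2.75.

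Sites of 1 library alone were frequent. The clusters held 41 sites of replicate 1 alone and 21 of replicate 2 alone, or 0.891 and 0.457 per shared site, against 0.269 and 0.151 over the genome. Hoxd had 8 and 0, Hoxa 23 and 8, Hoxb 2 and 0, and Hoxc 8 and 13. Hoxa and Hoxd thus leaned to replicate 1 and Hoxc to replicate 2, in numbers of such sites. Only for replicate 2 do the labels name instruments (a pair of them), and sequencing run and replicate cannot be told apart here.

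Footprints per kb put the clusters in the same order as shared sites per 100 kb did. Hoxa held 1.45 footprints per kb in replicate 1 and 1.05 in replicate 2, Hoxc 0.866 and 0.909, Hoxd 0.597 and 0.445, and Hoxb 0.256 and 0.176, against 0.132 and 0.118 over the genome. Of the 23 shared sites in promoter windows, 22 held a footprint in each library (95.7%), against 89.4% of all shared promoter sites in replicate 1 and 88.6% in replicate 2. Per 100 bp the Hox promoter sites held 1.59 and 1.61 footprints, against 1.47 and 1.44. Within open sites, footprints were therefore about as dense as elsewhere.

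The capitals in the printed letters show bases that lay in footprints of both libraries. The Hoxd10 promoter has no capitals, because the 1 footprint of each library there had no base in common. The site upstream of Hoxc8 holds GGTGGCGCT at positions 59 to 67, counted from the first printed base, and the Hoxd3os1 site holds the similar GGAGGCGCT at 47 to 55. Both runs lay wholly in footprints of both libraries. These letters resemble part of the binding consensus of CTCF, the protein that bounds chromatin loops. The form GNNGGCGCT, chosen after footprinted sequences were seen, occurred on either strand in 8 of 46 Hox sites (17.4%). Of those 8, 3 lay in promoter windows and 5 outside. The genome shares were 8.32% of 23649 promoter and 5.75% of 44692 distal sites. The sites that prompted it are among those 8, so the count cannot show whether these letters are frequent in the clusters. In the sites chr15:102999241-102999460 and chr15:102943361-102943540 that form overlapped no footprint of either library. The full CTCF core, a longer consensus, had no exact match in the 46 sites, against 1.64% and 8.84%. With up to 1 mismatch it matched in 7 sites (15.2%), against 7.12% and 23.3%. It was in 5 of the 23 Hox sites in promoter windows and in 2 of the 23 outside them. The match upstream of Hoxb8, at positions 48 to 59, lay wholly in footprints of both libraries. Those in the Hoxc11 site and in the site of Hoxd3 and Hoxd4 overlapped no footprint of either library.

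Other motifs were sought as exact letters on either strand of the 150 bp around the middle of a site. The Hox shares pool 23 sites in promoter windows with 23 outside them, so neither the promoter nor the distal share is a like background. The E-box CAGCTG, of the type bound by MyoD, was in 2 of 46 Hox sites (4.35%), against 12.1% of promoter and 25.4% of distal sites. Both lay in promoter windows, among them the strong Hoxa7 site, and 0 of the 23 sites outside held it. The cyclic AMP response element TGACGTCA was in 1 (2.17%), against 1.93% and 0.421%. CCAAT was in 12 of 46 Hox sites (26.1%), 7 in promoter windows and 5 outside, against 20.6% of promoter and 16.7% of distal sites. The box GGGCGGGG of SP and KLF factors was in 2 (4.35%), both in promoter windows, against 21.1% and 3.17%. The Hoxa4 promoter holds it at positions 48 to 55 and 82 to 89 on the minus strand. The homeodomain core TAATTA was in 1 (2.17%), against 0.393% and 1.23%, the posterior Hox form TTTATGG in 1, against 0.482% and 1.14%, and TGACAG of MEIS in 1, against 8.34% and 12.6%. TGANTCA of AP-1 was in 2 (4.35%), against 2.64% and 7.99%. The joint HOX and PBX form TGATNNAT, GCCATNTTG of YY1, MEF2 and the retinoic acid element had no match in the 46 sites, against 1.10%, 1.97%, 0.245% and 0.0211% of promoter sites and 3.14%, 0.781%, 0.550% and 0.0895% of distal sites.

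The clusters also encode RNAs that are not translated, and 4 of 16 annotated ones had a shared site within 1000 bp of a start. The share over all non-coding genes was not counted, and the shares given above are of protein-coding genes. Whether 4 of 16 is low or high therefore cannot be told here. Hoxd3os1 had signals of 8.97 and 7.87, and Hotairm1, a transcript next to the anterior end of Hoxa, had 2.43 and 2.31. The microRNA Mir615, inside Hoxc5, had 2.27 and 2.25, from the Hoxc5 coding exon site given above. Mir196b, between Hoxa10 and Hoxa9, had 2.13 and 1.98, from a site that also lies in a Hoxa9 promoter window. Strict peaks of both libraries that did not overlap were found at Hoxa11os (1.38 and 0.585), and Hoxaas2 had one in replicate 1 alone (2.06). No strict peak was found at Hotair and Hottip, long RNAs linked to Hoxd and Hoxa regulation, or at Hoxaas3, Hoxb5os, Hoxb3os, Haglr, Mir10a, Mir10b, Mir196a-1 and Mir196a-2.

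The microRNAs fall into pairs by seed, the bases that choose their targets, shown in capitals in these RefSeq sequences (GRCm38.p6). The miR-196 family is known to silence Hox messages of the same region.
miR-196b-5p: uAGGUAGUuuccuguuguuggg
miR-196a-5p: uAGGUAGUuucauguuguuggg
miR-10a-5p: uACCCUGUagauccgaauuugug
miR-10b-5p: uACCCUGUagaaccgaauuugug
Within the miR-196 pair, Mir196b in Hoxa had a shared site, which is also credited to Hoxa9, and both copies encoding miR-196a, in Hoxb and Hoxc, had no strict peak. Within the miR-10 pair neither gene had one.

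Genes that work with the clusters or border on them are to be read against the 64.2% of all protein-coding genes with a shared promoter site. All 9 TALE homeodomain cofactors, which bind DNA together with HOX proteins, had a shared promoter site, led by Pknox1 (24.1 and 18.6 in replicates 1 and 2). Of the Polycomb and Trithorax regulators 20 of 21 did, led by the demethylase Kdm6a (39.2 and 30.5) and Jarid2 (32.9 and 27.1), and its relative Kdm6b had no strict peak. Of the retinoic acid pathway 8 of 10 did, nearer to that share, led by the receptors Rxrb (22.0 and 19.3) and Rarg (18.8 and 15.7), and Cyp26a1 and Crabp2 had none.

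Of 10 limb factors 8 had a shared site, a share not far from the 64.2% of all genes, led by Gli3 (4.54 and 3.86) and Lbx1 (4.08 and 3.71), a factor of migrating limb muscle precursors. Tbx4, the hindlimb factor, had 1.99 and 1.56, and Pitx1 had 0.919 and 1.28. The forelimb counterpart of Tbx4, Tbx5, and the signal Shh had no strict peak. In the permissive lists Tbx5 had a peak in replicate 2 alone (0.492). Of 11 neighbours of the clusters 8 had one, again near the share of all genes, led by Skap2 (20.5 and 16.8) and Hibadh (15.2 and 14.7). Evx1 and Evx2, homeobox genes next to paralogue 13 of Hoxa and Hoxd, and Skap1 had none. Of 6 ParaHox and Cdx genes, relatives of the Hox genes, 1 had a shared site, Gsx1 (1.89 and 1.61), and Gsx2, Pdx1, Cdx1, Cdx2 and Cdx4 had no strict peak.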

How the data were processed

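DNase-seq libraries of 2 biological replicates were used as deposited, on mm10. The deposited peak lists give the authors' signal per peak, and of the 2 lists of a library that with fewer peaks was taken as strict. The deposited footprints carry 1 false discovery rate (0.01), and deposited q-values, given base by base for the local cut rate, reach up to 0.05. The aligner, both callers and their versions were not given in the sources used here. Nor were read totals, so depth is unknown beyond the peak counts. Reads of an F1 hybrid were placed on mm10, per the labels, and no allele was separated.

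Overlapping strict peaks were merged with pandas 2.3.3 and numpy 2.4.6 under Python 3.11.15. Gene starts came from GENCODE on mm10, sequences from GRCm38, and motifs were sought letter by letter on both strands in the central 150 bp of a site. The procedure was tested on simulated peaks. No test between groups was possible.

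The members, lists and motifs were chosen with earlier results of these data known. Values were named for every member and, by a fixed rule, for the 3 strongest promoters and outside sites per cluster, genes numbered 9 to 13 with a shared site, the clusters' non-coding genes, and the 2 strongest and the genes without a peak of other lists. Tbx4, Pitx1, GNNGGCGCT and the mismatch allowed in the CTCF core were chosen after their values were seen. The sequence of 1 Hoxc site and the values of 1 cofactor gene are not reported here.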

Additional observations from a re-analysis of the deposited data

How the results depend on the processing

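The count of 17 Hox genes with a shared promoter site lay between 15 and 23 under permissive peaks, the stronger 50% of peaks, 50% reciprocal overlap, equal peak numbers, windows of 500 and 2500 bp and gene-record starts, and was 14 and 15 with principal starts and coding starts, which were added after the data were seen. With 1 library alone it was 18 to 19. The median promoter signal, 3.82, was 5.14 with a 2500 bp window, 5.00 with summed peaks and 5.00 from coding starts, and 3.36 to 3.41 with 1 library alone. The 46 shared sites became 88 with permissive peaks, and 68 to 88 peaks were counted in 1 library alone. In Hoxb the stronger 50% of peaks left 4 of 8 sites. The mean of 319.5 footprints per library in the clusters was 167.5 where a footprint of the other library was required and 204 inside strict peaks, and was 287 to 352 in 1 library alone. The cause was not tested. The share of Hox sites with CCAAT, 26.1%, was 37.0% in 300 bp and 21.6% with permissive peaks. Genes with no listed base numbered 11 in each library alone. No paired analysis was possible because there was only 1 group. With 2 libraries of unknown depth, a missing peak is not shown to be closed DNA.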

Other observations

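In the 2 broad blocks the libraries disagreed base by base. Of the 62 strict sites of the clusters found in 1 library alone, 20 (32.3%) had a false discovery rate of at most 1e-10 in that library while the other library listed no base at all within the site. Over the genome 1173 of 28724 such sites did (4.08%). The 20 comprised 13 sites of Hoxc, 10 of them in replicate 2 and 3 in replicate 1, all between chr15:102956721 and chr15:102966189, and 7 of Hoxa, 6 of them in replicate 1 between chr6:52224021 and chr6:52230040, and 1 in replicate 2 (chr6:52197381-52197520). Their peak signals were low, 0.173 to 0.718 in the 10 replicate 2 sites of Hoxc and 0.346 to 1.43 in the 6 replicate 1 sites of Hoxa. Hoxb and Hoxd had none. The cause was not tested, and the interval shares of listed bases between Hoxc11 and Hoxc10 and between Hoxa10 and Hoxa7 rest in part on these sites.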
